A study of Drosophila melanogaster with 6 samples.

Results

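Octopamine and tyramine are the insect counterparts of noradrenaline and adrenaline, and the genes that make and sense them were measured in fly heads after a week of coconut oil in the food. The system was taken as 9 genes given by name: the enzymes Tdc1, Tdc2 and Tbh, the octopamine receptors Oamb, Octbeta1R, Octbeta2R and Octbeta3R, and the tyramine receptors Oct-TyrR and TyrR. A gene was kept when the platform annotation tied at least 1 probe set to it alone, and the brightest such probe set by mean was used. This gave 8 of the 9 genes, among 11982 genes named on the array. Oamb had no such probe set and was not analysed here. On the array, 1 probe set names several genes, at least 1 of the 9 among them, and was not used.

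The samples were whole heads of mated female Drosophila melanogaster of genotype w1118, a white-eyed laboratory strain, which both diets share. Females were collected as virgins at 0 to 3 days of age, mated for 48 hours with isogenic males, and then kept for 7 days either on normal diet or on that medium plus 20% (w/v) coconut oil. Each RNA sample pooled 25 to 50 heads, and 3 samples per diet, described as biological replicates, were each hybridised to 1 Affymetrix Drosophila Genome 2.0 array. In whole heads, fewer cells of a type and less RNA per cell cannot be told apart, and a pool averages over its flies.

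In flies, tyrosine decarboxylases turn tyrosine into tyramine, and tyramine beta-hydroxylase turns tyramine into octopamine. A small number of neurons release both amines, which act through G protein-coupled receptors on arousal, feeding, reward learning, flight, muscle tone and, in females, ovulation. Octopamine neurons are known for driving the restless food search of starved flies.

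Signal is given in the deposited linear units for each array and as mean log2 signal ± SD over 3 arrays. Changes are on the log2 scale, positive where the high fat diet was higher, with the standard error (SE) of limma, a linear model fitted to every probe set with a shared estimate of spread. Background was set per array from 50 control probe sets that carry names of proteins foreign to the fly, at their 95th percentile, between 15.2 and 21.8 signal units per array. The neuronal and photoreceptor character of the samples was plain: 18 of 18 measured pan-neuronal and 8 of 8 photoreceptor markers lay above background on all 6 arrays. So did 10 of 17 measured ovary and germ line markers. The summed signal of the 17 was 16690, 5734 and 20040 on normal diet replicates 1, 2 and 3 and between 4468 and 4827 on the high fat arrays. Markers with little difference between diets, such as grk and fs(1)K10, make up part of this sum. The marker osk gave 1664, 415.7 and 2124 units on the normal diet. On the high fat diet it gave 13.57, 16.17 and 19.51, above background on 1 of 3 arrays. Of the 17, 15 had a lower and 2 a higher high fat mean. Between 65.3% and 70.0% of probe sets lay above background on each array, and the array medians ran from 59.0 to 86.2. The 3'/5' ratio of the Act5C control probe sets, a rough guide to RNA integrity, was 20.4 on high fat diet replicate 2 and 10.5 to 13.2 on the others. The 3' probe set was thus far brighter than the 5' one on every array, and most so on that one.

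All 8 genes were measured above background on all 6 arrays, and none passed the test between the diets after adjustment over all probe sets. The gene with the widest difference was Tdc1, the decarboxylase known mainly from cells outside the nervous system, at 1.56 times as much signal on the high fat diet. The neuronal decarboxylase Tdc2 and the octopamine-making enzyme Tbh had no difference beyond their spread, and by the probe sets used none of the 5 receptors had one. At a limma adjusted p under 0.05, 0 of the 8 genes passed, against 0 of 18769 probe sets (0%). At an unadjusted p under 0.05, Tdc1 alone passed among the 8, against 1475 of all probe sets (7.86%). The diets did not overlap in 1 of the 8, again Tdc1, against 17.7% of all probe sets and 22.8% of those above background on all arrays. The count of such genes is thus no larger here than on the array as a whole.

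**Figure D1:**
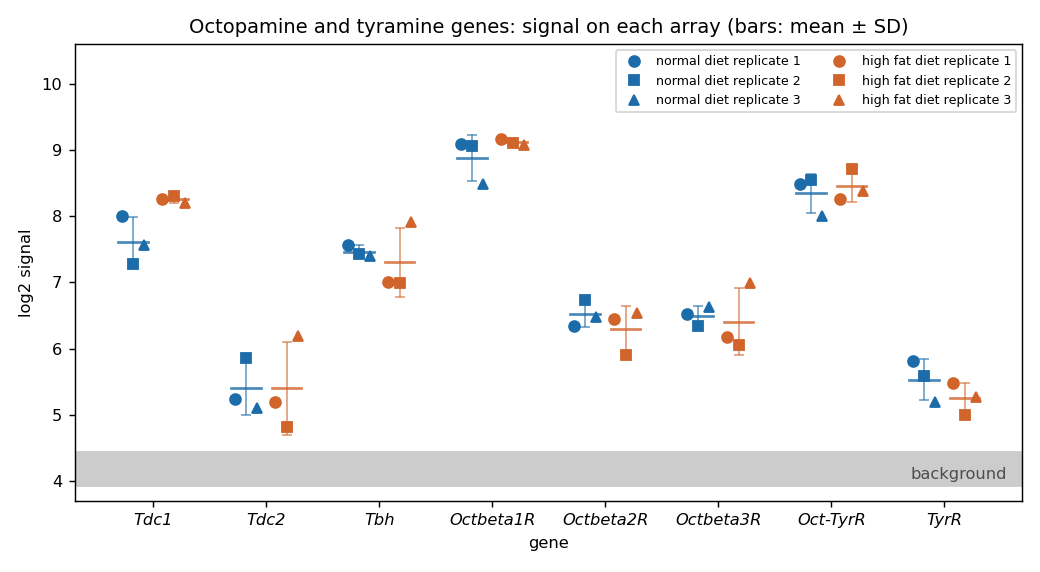
log2 signal of the 8 genes on each array, normal diet in blue and high fat diet in orange, with the marker shape giving the replicate number. Horizontal bars are means, whiskers are SDs (n = 3), and the grey band spans the background of the 6 arrays. Only in Tdc1 do all orange points lie beyond all blue ones, and Tdc2 and TyrR lie nearest to background.

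Among the enzymes, Tdc1 gave 257.5, 154.5 and 189.7 signal units on normal diet replicates 1, 2 and 3, and 307.6, 314.8 and 293.4 on the high fat arrays. Every high fat array was higher than every normal diet array, the high fat values lay close together, and the normal diet values were widely spread. The means were 7.62 ± 0.37 and 8.25 ± 0.05 (n = 3 each), a change of 0.64 (SE 0.21, 95% interval 0.10 to 1.18). Its adjusted p was 0.610 by limma, so this difference did not stand out once all probe sets were counted. The lowest value came from normal diet replicate 2, the normal diet array with the least germ line signal, and without that array the change was 0.47 (limma adjusted p = 0.431). With the pair of arrays richest in germ line signal left out, normal diet replicates 1 and 3, it was 0.98, with 1 normal diet array assumed to vary like the high fat arrays (limma adjusted p = 0.421).

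The pan-neuronal markers differed in the same direction as Tdc1, though none passed the test. All 18 had more signal in the high fat mean, with a median change of 0.26, against -0.03 over all probe sets. When each array was centred on that list, the change of Tdc1 was 0.25 (SE 0.29) and the diets overlapped. This centring moved the median over all probe sets from -0.03 to -0.42, a larger shift than the list's median change of 0.26. The overlap was read at that larger shift alone. Whether the diets overlap in Tdc1 at a shift of the list's own median change was not tested. Muscle markers had a higher high fat mean in 11 of 12 measured genes (median change 0.25), with summed signals of 27190 to 30390 on the normal diet and 33700 to 36510 on the high fat diet. Other lists were mostly higher too: 8 of 8 photoreceptor, 7 of 8 hemocyte, 4 of 5 aminergic and glutamatergic and 6 of 8 glial markers. Their median changes were 0.27, 0.20, 0.22 and 0.10. Fat body markers were higher in 4 of 9, and ovary and germ line markers in 2 of 17 (median change -2.99). The part of any of these RNA sources in the Tdc1 difference was not tested further.

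Tdc2 makes the tyramine of neurons and is a paralog of Tdc1, with 1 gene, CG15909, between them in the RefSeq order of protein-coding genes. Its signal was low, at 37.77, 57.97 and 34.24 units on the normal diet and 36.49, 28.23 and 72.64 on the high fat diet. The highest and the lowest value both came from the high fat diet. The means were 5.40 ± 0.40 and 5.40 ± 0.71, and the 95% interval of the ratio of high fat to normal diet ran from 0.476 to 2.10, the widest of the 8 genes. Changes in Tdc2 within that range could not be told from the spread between replicates.

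Tbh, the hydroxylase that commits tyramine to octopamine, gave 190.1, 171.5 and 168.3 units on the normal diet. On the high fat diet it gave 128.9, 127.4 and 239.7. High fat replicates 1 and 2 were lower than every normal diet array, whereas replicate 3 was the highest of all 6. The change was -0.16 (SE 0.29, limma adjusted p = 0.873), and without high fat replicate 3 it was -0.46 (SE 0.14, limma adjusted p = 0.719). The 95% interval of the ratio with all arrays was 0.542 to 1.48.

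The 2 comparisons between enzymes did not separate them. The change of Tdc1 exceeded that of Tdc2 by 0.64, with an exact two-sided permutation p = 0.4 over the 6 arrays. It exceeded that of Tbh by 0.80 (exact permutation p = 0.2). Adjusted over both pairs, each exact p was 0.4, and with 3 arrays against 3 no exact p can be below 0.1.

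**Figure D2:**
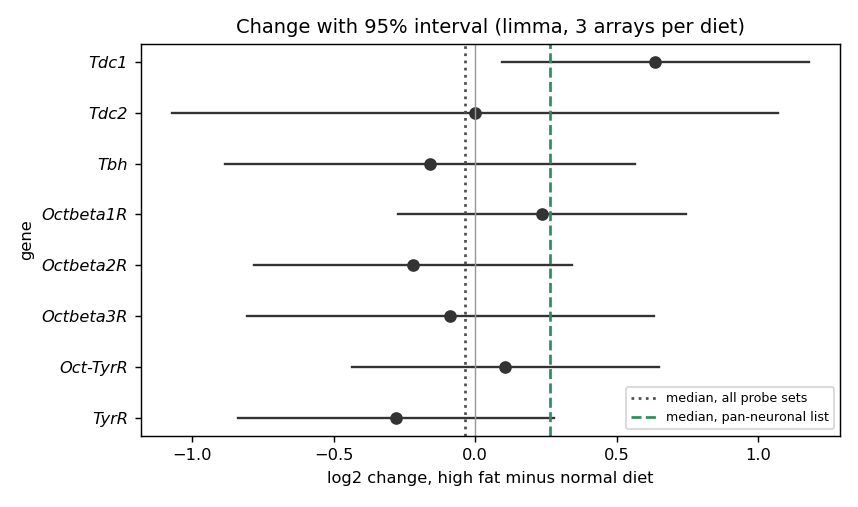
Change of each gene (points) with its 95% interval from limma (lines), in log2 units, high fat minus normal diet. The dotted line is the median over all probe sets (-0.03) and the dashed line the median of the pan-neuronal list (0.26). Only the interval of Tdc1 (0.10 to 1.18) leaves out 0.

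By the brightest probe set of each, the beta-type octopamine receptors, which raise cyclic AMP, did not differ between the diets beyond error. Octbeta1R, which restrains synaptic growth at larval motor terminals, gave 545.4, 532.8 and 357.4 units on the normal diet and 571.7, 552.9 and 536.5 on the high fat diet. Normal diet replicate 3 was low and the other 5 arrays lay together, with replicate 1 of the normal diet within the high fat range. The change was 0.24 (SE 0.20, interval -0.27 to 0.75, limma adjusted p = 0.711), and without normal diet replicate 3 it was 0.0382. Averaged over its 3 probe sets it was 0.45 (SE 0.29). Most marker lists were lowest on that array too, with a median deviation from their own means of -0.31 for pan-neuronal, -0.30 for muscle, -0.28 for photoreceptor, -0.19 for glial and -0.15 for hemocyte markers.

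Octbeta2R, which promotes synaptic growth in hungry larvae and acts in the oviduct during ovulation, gave 81.13, 106.4 and 89.18 units on the normal diet. The high fat arrays gave 87.08, 60.09 and 92.94, so that only replicate 2 stood below the normal diet range. The change was -0.22 (SE 0.22, limma adjusted p = 0.756). Octbeta3R, known for its part in steroid hormone production of larvae and separated from Octbeta2R by the Hug gene alone, gave 91.47, 80.75 and 98.48 units on the normal diet. On the high fat diet it gave 71.88, 66.50 and 126.6. As in Tbh, high fat replicates 1 and 2 lay below all normal diet arrays and replicate 3 above them. The change was -0.09 (SE 0.28, limma adjusted p = 0.935), or -0.38 without high fat replicate 3. Averaged over its 4 probe sets, 3 of them near or below background on some arrays, it was -1.08 (SE 0.39, limma adjusted p = 0.499) and the diets did not overlap.

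The tyramine receptors showed no difference beyond error. Oct-TyrR, which responds to tyramine more strongly than to octopamine and lowers cyclic AMP, gave 357.4, 372.7 and 256.7 units on the normal diet and 307.3, 418.3 and 332.3 on the high fat diet. The ranges overlapped in part, with a change of 0.11 (SE 0.21, limma adjusted p = 0.888). TyrR, a receptor selective for tyramine, was dim, at 56.08, 47.75 and 36.72 units on the normal diet and 44.54, 32.04 and 38.43 on the high fat diet. Its change was -0.28 (SE 0.22, interval -0.84 to 0.28, limma adjusted p = 0.697). TyrRII, the gene next to TyrR and a related receptor, was below background on 5 arrays and reached 24.12 units on normal diet replicate 2, so no ratio is given.

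Over the 8 genes the changes ran from -0.28 to 0.64, with a median of -0.04 against -0.03 over all probe sets. Of the 8, 3 had a higher and 5 a lower high fat mean, against 45.7% of all probe sets with a higher mean. This split rests on how the arrays are scaled. It was 7 higher and 1 lower after quantile normalization or with each array centred on its median, and 1 higher and 7 lower with each array centred on the pan-neuronal list. These scalings moved the median of all probe sets to 0.04, 0.23 and -0.42. The median of the 8 genes followed, at 0.16, 0.22 and -0.43. Tdc1 was higher on the high fat diet under each scaling, at 0.25 to 0.91, and TyrR lower under each, at -0.67 to -0.01, while each of the other 6 changed sign under at least 1 of them. Of the 8 intervals, 7 included 0, and taken over all of them the ratios allowed ran from 0.476 to 2.26.

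Some of these genes shared a profile over the arrays. Tbh, Tdc2 and Octbeta3R were each highest on high fat replicate 3, as were 14.4% of the 10703 probe sets above background on all arrays. On that array Tdc2 exceeded the mean of the other high fat arrays by 1.18, Tbh by 0.90 and Octbeta3R by 0.87. Differences at least as large were found in 0.299%, 0.962% and 1.11% of those probe sets, whose median difference was 0.01. Those probe sets were not matched to these genes for signal, and Tdc2 lay at 1.57 to 3.82 times background. Tdc1, Octbeta1R and Oct-TyrR did not share the rise on that array, at -0.08, -0.07 and -0.11. Over the 6 arrays Tbh correlated with Octbeta3R at r = 0.94 and with Tdc2 at r = 0.78. This is a description only, since genes read on 1 array share its RNA extract and scaling. These genes were singled out after their values were seen. Pan-neuronal markers deviated less on high fat replicate 3 (0.09) than on replicates 1 and 2 (0.17 and 0.19).

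High fat replicate 2 stood at the other end. Of the 8 genes, 5 were lowest on it, namely Tdc2, Tbh, Octbeta2R, Octbeta3R and TyrR, as were 25.6% of the probe sets above background on all arrays. This is the array with the Act5C 3'/5' ratio of 20.4, and the part of RNA integrity in these values was not tested. Without it the change was -0.0050 in Tbh, 0.29 in Tdc2, 0.08 in Octbeta3R, -0.03 in Octbeta2R and -0.16 in TyrR. Without high fat replicate 3 the diets did not overlap in 4 of the 8 genes, Tdc1 and Octbeta1R higher and Tbh and Octbeta3R lower on the high fat diet, against 28.6% of all probe sets in that comparison. None of the 4 passed the limma test there. With normal diet replicates 1 and 3 left out together the diets did not overlap in 4 of the 8 either, against 51.6% of all probe sets. The within-diet SD of the 8 genes ran from 0.24 to 0.57, above the median of 0.17 over the 10703 well-measured probe sets. The median over all probe sets was 0.33, within that range. Neither set was matched to these genes for signal.

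**Figure D3:**
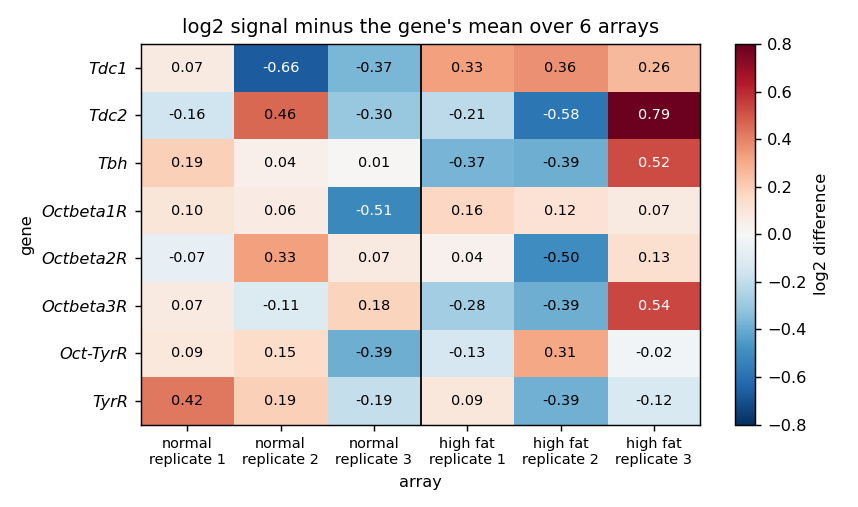
Each cell gives the log2 signal of a gene on 1 array minus its mean over the 6 arrays, with red above and blue below that mean, and the black line parts the diets. Tdc2, Tbh and Octbeta3R are red on high fat replicate 3 (0.79, 0.52 and 0.54) and blue on replicates 1 and 2, while Tdc1 is red on all high fat arrays.

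The other probe sets of the beta-type receptors gave a mixed picture. The annotation tied 14 probe sets to 1 of the 8 genes alone, 6 of them beside those used above, all in Octbeta1R, Octbeta2R and Octbeta3R. The second probe set of Octbeta2R was above background on all arrays and gave a change of -0.07 (SE 0.23), close to that of the first. Both others of Octbeta1R lay around background, each above it on 2 arrays of either diet.

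Octbeta3R had 3 further probe sets, and 1 of them differed between diets by more than any probe set used above. It gave 17.71, 20.17 and 18.69 units on the normal diet and 2.481, 2.074 and 3.457 on the high fat diet. The normal diet values stood at the edge of background, above it on 2 of 3 arrays, and the high fat values were far below it. The fitted change was -2.85 (SE 0.22, limma adjusted p = 0.0957). However, the normal diet mean was only 1.01 times the background level of the high fat arrays. With the normal diet at the edge of background and the high fat diet below it, the values give no size and do not establish a decrease. Over the alternatives the limma adjusted p of this probe set ran from 0.0453, without normal diet replicate 2, to 0.492 with the replicate block. The probe set used for Octbeta3R, which was at 3.50 to 6.66 times background, did not show such a difference. The remaining probe sets gave -1.02 (SE 0.69), above background on 3 normal diet arrays and 1 high fat array, and -0.36 (SE 0.90), above it on 2 and 1.

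**Figure D4:**
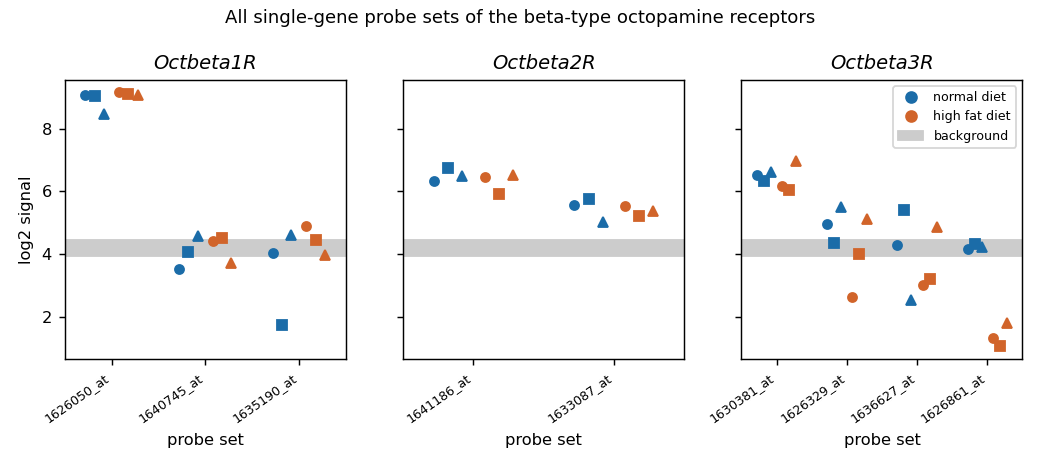
log2 signal of every single-gene probe set of Octbeta1R, Octbeta2R and Octbeta3R on each array (blue normal diet, orange high fat diet, circle, square and triangle for replicates 1, 2 and 3). The grey band is background. The last probe set of Octbeta3R is at the band for normal diet arrays and under it for high fat arrays, while the first overlaps between diets.

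Genes that supply, pack and remove the amines, with the remaining receptors, showed no shared change. Of 19 names listed, 16 had a probe set tied to that name alone, and 12 of these lay above background on all arrays. None of the 16 passed the limma test in either direction, 8 had a higher and 8 a lower mean, and the median change was -0.01. The diets did not overlap in 1 of 16, against 17.7% of all probe sets. That gene was Vmat, the transporter that loads octopamine, tyramine, dopamine and serotonin into vesicles. It gave 1149, 698.5 and 1241 units on the normal diet and 1404, 1522 and 1371 on the high fat diet, a change of 0.52 (SE 0.25, limma adjusted p = 0.612). As in Tdc1, its lowest array was normal diet replicate 2. Ddc, the decarboxylase of dopamine and serotonin synthesis, had a difference of 0.21 (SE 0.15). The vesicular transporter prt gave 81.69, 77.50 and 71.12 units against 54.83, 41.22 and 88.76, a change of -0.39 (SE 0.30). Its high fat arrays were ordered as in Tdc2, with replicate 3 highest by 0.90 over the mean of the others. Octalpha2R, an octopamine receptor that lowers cyclic AMP, was at -0.14 (SE 0.23).

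The signalling genes behind the receptors that had a single-gene probe set were all well measured, and none passed. Of 29 names listed, which include an older name of krz, 19 had a probe set tied to that name alone. Names without one, among them Pka-C1, CaMKII and norpA, were not analysed. All 19 lay above background on all arrays. Of these, 13 had a higher and 6 a lower high fat mean, with a median change of 0.07, below the 0.26 of the pan-neuronal list. The diets did not overlap in 6 of 19, all higher on the high fat diet, against 8.46% of all probe sets in that direction and 11 of 18 pan-neuronal markers. In either direction the share was 22.8% among probe sets above background on all arrays, as these 19 were. The adenylate cyclase Ac78C had the smallest p, with 311.7, 329.0 and 236.8 units on the normal diet and 418.3, 436.4 and 347.8 on the high fat diet. Its change was 0.46 (SE 0.18, limma adjusted p = 0.610). Pka-C3, a catalytic subunit in the protein kinase A family, had a difference of 0.30 (SE 0.15). Galphaq, the G protein subunit that couples receptors to phospholipase C and serves vision in the eye, had one of 0.29 (SE 0.16).

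**Figure D5:**
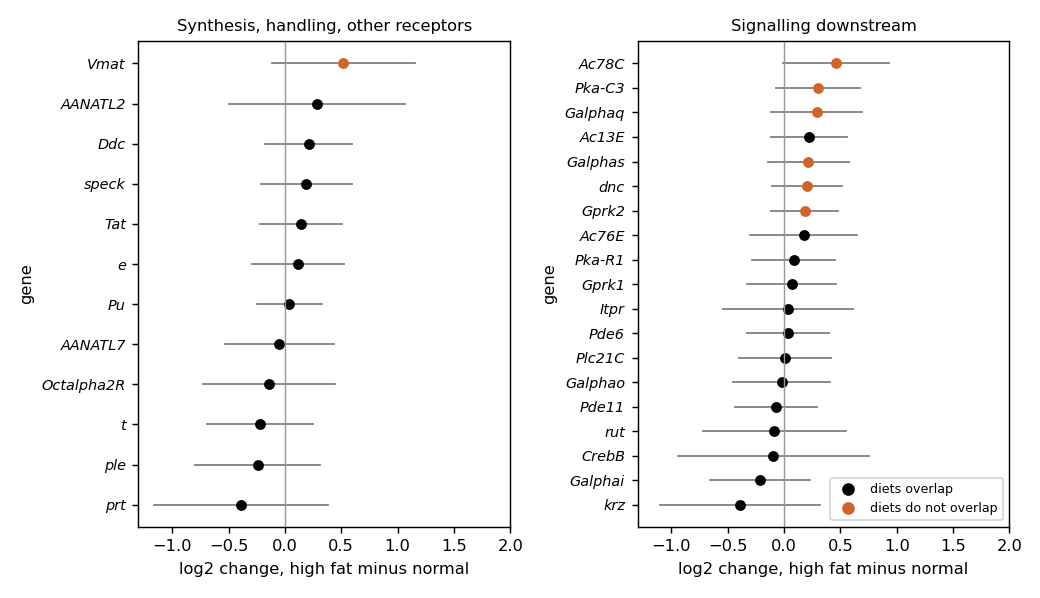
Change with 95% interval from limma, in log2 units, for the listed genes above background on all arrays of at least 1 diet, with orange points where the diets do not overlap. Vmat (0.52) leads the left panel and Ac78C (0.46) the right, and every interval shown includes 0.

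The profiles of Tdc1 and TyrR, the genes of the 8 with the smallest p, were set against 8325 genes above background on all arrays. The genes most like Tdc1 were dpr16 (r = 0.98), CG14762 (r = 0.98) and mib2 (r = 0.98), over 6 arrays that share both diets. dpr16, an immunoglobulin-domain protein of the neuronal Dpr family, gave 173.4, 146.5 and 151.5 units on the normal diet and 194.2, 193.2 and 191.5 on the high fat diet. It thus repeated the tight high fat values and the low normal diet replicate 2 of Tdc1 over a narrower range (change 0.30, SE 0.12, limma adjusted p = 0.610). For TyrR they were CG8299 (r = 0.98), Ltn1 (r = 0.98) and eya (r = 0.98), the last a regulator of eye development. Of the 8325 genes, 67 exceeded r = 0.9 with Tdc1 and 49 with TyrR.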

How the data were processed

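Labelled RNA of whole heads was measured on 6 arrays, 3 per diet. The authors deposited linear signal intensity per probe set, made with Affymetrix Expression Console per the submitters' processing notes. Version and summarisation method: not given in the sources used here. With 2% of values trimmed at either end, every array had a mean of 500, which points to 1 scaling factor per array. Values below 1 were set to 1 (2078 values, controls included) before log2. After removal of 183 controls, lmFit and eBayes of limma 3.58.1 (R 4.3.3) were run on 18769 probe sets and all 6 arrays without covariates. p-values were Benjamini-Hochberg adjusted over all of them, with a threshold of 0.05. The fit was tested on simulated data. Of the 13647 probe sets with 1 gene symbol, 13544 matched the RefSeq table by Entrez identifier, and 0 symbols changed. Genes and lists were chosen with earlier results of these data known. Named were the 8 genes, the 3 genes of each related list with the smallest p above background on all arrays of at least 1 diet, and the 3 genes most correlated with each of 2 members. Genes outside this rule were named for their role (TyrRII, Octalpha2R), as examples of germ line markers (osk, grk, fs(1)K10) or as neighbours on the chromosome (CG15909, Hug). The marker lists served as context: glia (median change 0.10), hemocyte (0.20), photoreceptor (0.27), fat body (-0.01), aminergic and glutamatergic neurons (0.22) and ovary and germ line (-2.99) had 0 genes past the threshold. No pair of arrays shared more than 0.00528% of its values. The number of arrays limits the precision. Alternatives were 3 scalings, a higher floor, a filter on dim probe sets, other moderation, the mean of all probe sets, a replicate block and arrays left out.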

Additional observations from a re-analysis of the deposited data

How the results depend on the processing

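No member passed the limma test under any of 15 alternatives. Of 120 member values, 37 have the same fitted change by construction. Of the other 83, 64 kept their direction and 19 changed sign. After quantile normalization the changes of Octbeta2R, Octbeta3R, Tbh and Tdc2 were 0.0464, 0.17, 0.0364 and 0.15, and with each array centred on its median they were 0.0479, 0.18, 0.11 and 0.27. Centred on the pan-neuronal list, Oct-TyrR was at -0.28 and Octbeta1R at -0.15. Without normal diet replicates 1 and 3 together, Oct-TyrR was at -0.0926 and Octbeta3R at 0.0667. Leaving out 1 array at a time gave -0.0623 to 0.21 for Oct-TyrR, -0.38 to 0.0848 for Octbeta3R, -0.39 to 0.29 for Tdc2 and 0.47 to 0.83 for Tdc1. The median of the members was 0.22 centred on array medians and -0.43 centred on the pan-neuronal list, and -0.32 (without high fat diet replicate 3) to 0.0659 with 1 array left out. Members whose diets did not overlap numbered 2 after quantile normalization, after median centring and with the mean of all probe sets, 3 centred on the pan-neuronal list, 4 without normal diet replicates 1 and 3, and 1 to 4 with 1 array left out. Over all probe sets limma called 2 centred on the pan-neuronal list, 6 without dim probe sets, 26 with trend and robust moderation, and 0 to 167 with 1 array left out (167 without normal diet replicate 2). With the replicate block it called 0 probe sets and 0 members. Arrays of like number had deviations correlating at -0.0744, 1.81e-04 and 0.0287, and 1 of 6 arrays correlated best with its own number. This check showed no pairing, but it cannot exclude that samples of like number were handled together. At the 99th percentile of the controls all 8 members stayed above background. The cause of these shifts was not tested.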
